A study of Mus musculus with 48 samples.

Results

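Mouse kidney slices that went through normoxia followed by hyperoxia, which the labels call a model of reperfusion, were compared with slices kept in normoxia, which the labels call a model of ischemia. Libraries were chosen by the condition in their titles, and 12 of the 48 libraries of the series took part. They came from male mice of 2 inbred strains, C57BL/6J and DBA/2J. Each strain gave 3 normoxia libraries and 3 normoxia-hyperoxia libraries, all titled 24 h. The slices were treated ex vivo, and the arms share tissue, sex and time point. Neither arm carried a transgene or a drug according to the labels. The labels give no oxygen levels, no time of the switch to hyperoxia and no age of the mice. They number the replicates but do not say whether these came from separate mice, so p-values measure the spread between these samples, which may be technical. The names of the libraries begin with a different prefix in each arm. Oxygen treatment and any handling that followed those names cannot be told apart.

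Kidney slices hold all segments of the nephron together with vessels, glomeruli and resident immune cells. Proximal tubule cells recover glucose, phosphate, amino acids and filtered protein, burn fatty acids in mitochondria and peroxisomes, and are the cells most easily injured by ischemia. In low oxygen the hypoxia-inducible factors HIF-1 and HIF-2 escape hydroxylation and raise genes for glucose uptake, glycolysis and vessel growth. When oxygen returns, reactive oxygen species, unfolded proteins and released cell contents engage other programs. NRF2 drives genes of glutathione and thioredoxin metabolism, HSF1 drives the chaperones of the heat shock response, ATF4 drives the integrated stress response, and AP-1 and NF-kappaB drive early response genes and cytokines.

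Promoters are shown for 7 genes as examples from the heat shock, cornification and oxygen sensing lists, of which Car9 moved against the other oxygen sensing genes shown. Each sequence is the 250 bases before the start of the gene, 5′ to 3′ on the strand of the gene, from RefSeq on GRCm38.p6, and capitals mark the motif named. Shares of promoters with a motif were counted in windows of 300 bases, 250 before and 50 after the start, on both strands, over the 12067 tested genes that had a window. A match is a run of letters and not a measured binding site.
The heat shock element (letters GAANNTTC) is in capitals in the promoters of the inducible HSP70 genes on chromosome 17, Hspa1b (chr17:34959239-34959488, minus strand) and Hspa1a (chr17:34972157-34972406, minus strand).
Hspa1b: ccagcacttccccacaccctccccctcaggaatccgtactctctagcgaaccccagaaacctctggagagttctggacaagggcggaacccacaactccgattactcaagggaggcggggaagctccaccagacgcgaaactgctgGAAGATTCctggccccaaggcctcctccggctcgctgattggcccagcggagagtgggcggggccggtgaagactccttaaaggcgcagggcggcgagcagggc
Hspa1a: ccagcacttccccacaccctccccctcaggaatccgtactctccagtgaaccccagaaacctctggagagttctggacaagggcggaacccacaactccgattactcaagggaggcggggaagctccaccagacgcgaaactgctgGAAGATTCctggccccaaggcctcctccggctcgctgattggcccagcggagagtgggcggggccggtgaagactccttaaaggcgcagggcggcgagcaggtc
The AP-1 motif (letters TGANTCA) is in capitals in the promoters of the cornified envelope genes on chromosome 3, Sprr1a (chr3:92485882-92486131, minus strand) and Sprr2f (chr3:92364937-92365186, plus strand).
Sprr1a: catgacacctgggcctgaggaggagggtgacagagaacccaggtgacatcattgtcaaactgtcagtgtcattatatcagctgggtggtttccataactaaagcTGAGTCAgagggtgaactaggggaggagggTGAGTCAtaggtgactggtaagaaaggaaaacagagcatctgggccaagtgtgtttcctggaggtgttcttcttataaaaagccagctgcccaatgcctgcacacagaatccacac
Sprr2f: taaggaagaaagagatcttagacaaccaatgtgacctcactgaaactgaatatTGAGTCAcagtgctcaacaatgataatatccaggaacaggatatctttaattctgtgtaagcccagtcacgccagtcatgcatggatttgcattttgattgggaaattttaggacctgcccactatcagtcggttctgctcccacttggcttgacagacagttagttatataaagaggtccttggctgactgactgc
The core of the hypoxia response element (letters ACGTG or GCGTG, or their reverse complement) is in capitals in the promoters of the glucose transporter gene Slc2a1 (chr4:119108495-119108744, plus strand), the adrenomedullin gene Adm (chr7:110627407-110627656, plus strand) and the carbonic anhydrase gene Car9 (chr4:43506776-43507025, plus strand).
Slc2a1: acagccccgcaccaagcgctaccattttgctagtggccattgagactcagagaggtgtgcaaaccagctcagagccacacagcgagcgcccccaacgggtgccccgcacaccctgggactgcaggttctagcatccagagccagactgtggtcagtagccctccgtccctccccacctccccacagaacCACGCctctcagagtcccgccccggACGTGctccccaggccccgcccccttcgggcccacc
Adm: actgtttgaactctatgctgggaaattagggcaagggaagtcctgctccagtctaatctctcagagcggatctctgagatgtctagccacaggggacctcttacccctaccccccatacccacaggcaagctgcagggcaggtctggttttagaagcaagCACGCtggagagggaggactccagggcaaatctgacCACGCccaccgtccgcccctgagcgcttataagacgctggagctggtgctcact
Car9: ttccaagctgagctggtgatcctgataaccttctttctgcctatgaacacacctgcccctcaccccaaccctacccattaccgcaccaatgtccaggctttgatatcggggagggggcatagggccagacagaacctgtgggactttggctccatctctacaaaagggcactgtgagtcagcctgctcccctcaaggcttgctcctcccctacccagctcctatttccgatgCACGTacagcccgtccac
The heat shock element begins 104 bases before the start in both HSP70 genes, whose windows of 250 bases differ at 3 positions. Of 16 heat shock genes with a window 9 held the element (56.2%), against 5.8% of all 12067 genes. The AP-1 motif was found in 6 of 7 cornification genes (85.7%), in 5 of 19 matrix genes (26.3%), in 1 of 17 tubular injury genes (5.88%) and in 0 of 15 immediate early genes, against 5.36% of all genes. Cornification genes near 0 counts under normoxia were counted only because they passed the filter on low counts through the normoxia-hyperoxia libraries. Several of them are near-identical Sprr2 copies, so the cornification share is a description only. The hypoxia core is short and was present in 60.1% of all genes, 17 of 21 oxygen sensing genes (81.0%) and 13 of 18 glycolysis genes (72.2%). The antioxidant response element (letters TGACNNNGC) was found in 8 of 20 NRF2 genes, against 14.5% of all genes.

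Total counts of the 12 libraries lay between 17409315 and 25137581, apart from 1 DBA/2J normoxia-hyperoxia library (replicate 2) with 5619309. Replicates of a group correlated across genes at 0.976 to 0.991. In a principal component analysis of these libraries the arms parted along the first component (62.5% of the variance), with all normoxia libraries at -54.9 or below and all normoxia-hyperoxia libraries at 53.7 or above. The strains parted along the second (23.2%). Levels are given as CPM, the share of a gene in the total count of its library scaled to 1000000 counts, in the order of replicates 1 to 3. Fold changes are log2 values of normoxia-hyperoxia over normoxia, as a mean over both strains unless a strain is named, from edgeR's quasi-likelihood test with Benjamini-Hochberg adjustment over 17228 genes.

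Most of the transcriptome differed between the arms. At an adjusted p-value under 0.05, 12663 genes changed (73.5%), 6371 of them higher (37%) and 6292 lower (36.5%) under normoxia-hyperoxia. Without the library of 5619309 counts 12578 genes changed. By more than 2-fold, 2764 genes rose (16%) and 2355 fell (13.7%), and 278 rose and 198 fell by more than 16-fold. The median log2 fold change over all genes was 0.02, with quartiles of -0.59 and 0.66, so a list is described below by its counts and its median beside these figures. The scaling of the libraries sets that median, which was -0.024 with upper quartile factors and 0.107 with library totals. Small shifts of a whole list have a direction only relative to the scaling. For 9228 genes (53.6%) the arms did not overlap in either strain and moved the same way. In C57BL/6J alone 10643 genes changed (61.8%) and in DBA/2J alone 11793 (68.5%), with 8755 changed the same way in both and 182 changed in opposite directions. Across genes, the fold changes of the strains, which share no library, correlated with a Pearson r of 0.866 and a Spearman rho of 0.822 over 17228 genes that are not independent replicates.

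**Figure D1:**
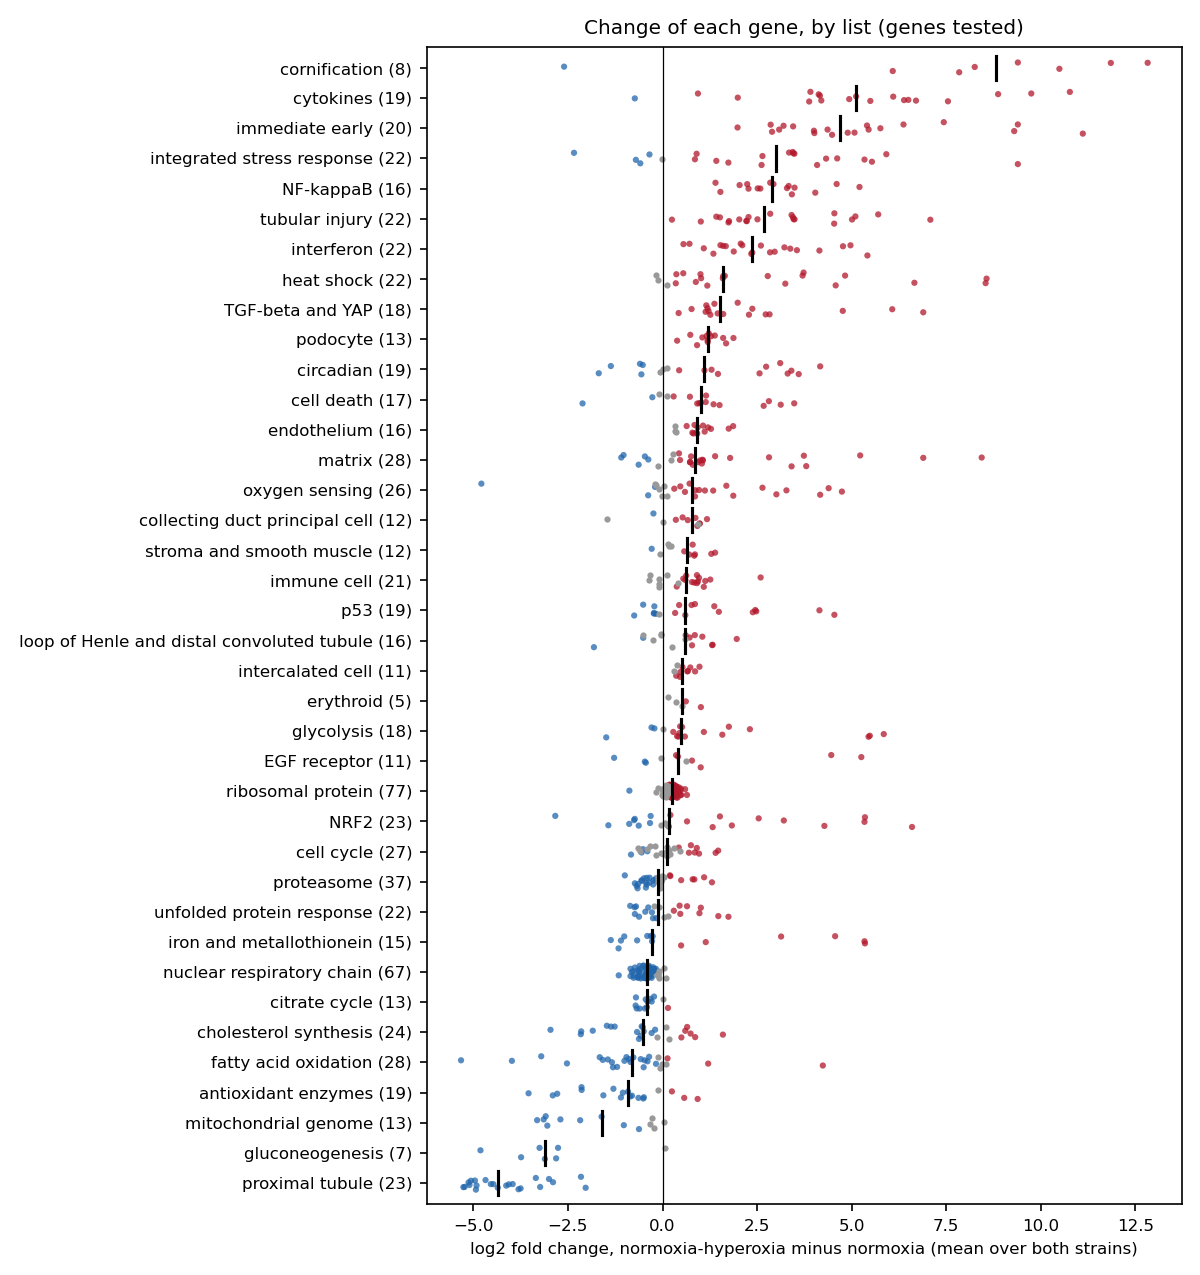
Log2 fold change of every tested gene (points) in each list, normoxia-hyperoxia minus normoxia over both strains, with the number of genes tested in brackets and the list's median as a black bar. Red and blue points passed the adjusted threshold upwards and downwards, grey points did not, and the medians run from -4.36 for proximal tubule markers to 8.83 for cornification genes.

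The largest falls were those of proximal tubule transporters and enzymes. All 23 markers of the proximal tubule fell, each by more than 2-fold, with a median log2 fold change of -4.36 (-4.64 in C57BL/6J and -4.15 in DBA/2J) and no overlap between the arms for any of them. Slc34a1, the brush border carrier that recovers phosphate, was measured at 4520, 2620 and 4080 CPM under normoxia and 65.7, 81 and 101 CPM after hyperoxia in C57BL/6J, and at 6430, 6510 and 7350 CPM and 455, 337 and 322 CPM in DBA/2J. This was a change of -4.93 (SE 0.17, edgeR adjusted p = 3.92e-12), and every normoxia-hyperoxia library lay below every normoxia library of its strain. Lrp2 encodes megalin, the receptor for filtered protein, and stood at 914, 665 and 940 CPM (C57BL/6J) and 1910, 2010 and 2160 CPM (DBA/2J) under normoxia. After hyperoxia the level was 29, 38.2 and 38.4 CPM (C57BL/6J) and 130, 90.6 and 81.5 CPM (DBA/2J) (log2 fold change -4.54, SE 0.15, edgeR adjusted p = 3.26e-12), again without overlap. Slc22a6, the basolateral organic anion transporter OAT1, had the largest fall of the markers. It went from 715, 404 and 535 CPM (C57BL/6J) and 1450, 1490 and 1730 CPM (DBA/2J) to 10.4, 9.11 and 13.6 CPM (C57BL/6J) and 71.5, 52.3 and 54.4 CPM (DBA/2J) (log2 fold change -5.26, SE 0.17, edgeR adjusted p = 8.07e-12).

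Markers of the early and the late proximal tubule fell alike in direction. Slc5a2, the glucose transporter SGLT2 of the early segment, was at 282, 205 and 420 CPM under normoxia and 7.03, 10.5 and 12.6 CPM after hyperoxia in C57BL/6J, and at 863, 850 and 945 CPM and 86.4, 71.7 and 56.6 CPM in DBA/2J (log2 fold change -4.36, SE 0.21, edgeR adjusted p = 3.25e-09). Slc7a13, an amino acid transporter of the late segment, was at 336, 378 and 343 CPM under normoxia and 14.7, 22.8 and 4.33 CPM after hyperoxia in C57BL/6J, and at 405, 372 and 368 CPM and 17.9, 8.36 and 5.92 CPM in DBA/2J (log2 fold change -4.96, SE 0.41, edgeR adjusted p = 2.28e-06). Kap, an androgen-regulated gene of the proximal tubule, changed by -5.07 (SE 0.17). Hnf4a, a transcription factor that maintains proximal tubule identity, fell less far than every transporter on the list (log2 fold change -3.00, SE 0.15, edgeR adjusted p = 1.49e-09). It was at 414, 311 and 345 CPM under normoxia and 25.2, 40.1 and 35.9 CPM after hyperoxia in C57BL/6J, and at 641, 634 and 661 CPM and 156, 109 and 93.4 CPM in DBA/2J. The smallest fall among the markers was that of Gatm, an enzyme of creatine synthesis (log2 fold change -2.03, SE 0.19, edgeR adjusted p = 1.28e-06).

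The 10 largest falls among all genes with a mean log2 CPM of at least 3 and no overlap between the arms were again mostly transporter and enzyme genes. They were the organic anion and cation transporter genes Slc22a30 (-5.96), Slc22a28 (-5.58), Slc22a22 (-5.53) and Slc22a6, the transporter gene Slco1a1 (-5.70), the cytochrome P450 genes Cyp4a12a (-5.66), Cyp2a4 (-5.37) and Cyp4a10 (-5.33), the succinate receptor gene Sucnr1 (-5.50) and the monocarboxylate transporter gene Slc5a8 (-5.27). Several have near-identical relatives (the Slc22a, Cyp4a and Cyp2a families), between which reads may have been split, so their individual values are uncertain. Sucnr1, which senses extracellular succinate, was at 25.5, 12.6 and 20.5 CPM under normoxia and 0.586, 0.438 and 0.252 CPM after hyperoxia in C57BL/6J, and at 67, 61.6 and 62.3 CPM and 2.3, 1.07 and 1.15 CPM in DBA/2J. No library of either strain crossed between the arms for this gene.

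Most markers of other kidney cells did not fall with those of the proximal tubule. Summed over the list, proximal tubule markers took 33800 to 43000 CPM in C57BL/6J normoxia and 1240 to 1610 CPM after hyperoxia. In DBA/2J the sums were 58300 to 61300 CPM and 3130 to 4580 CPM. All 13 podocyte markers rose (median 1.20), as did 13 of 16 endothelial markers (median 0.91) and 9 of 11 intercalated cell markers (median 0.53), with none lower in these 3 lists. The arms did not overlap for 12 of 13 podocyte, 9 of 16 endothelial and only 1 of 11 intercalated cell markers, against 53.6% of all genes. Nphs1, which encodes nephrin of the podocyte slit diaphragm, was at 97, 84.1 and 72 CPM under normoxia and 256, 197 and 262 CPM after hyperoxia in C57BL/6J, and at 40, 56.4 and 53.7 CPM and 127, 205 and 226 CPM in DBA/2J (log2 fold change 1.60, SE 0.14, edgeR adjusted p = 7.04e-07). Cdh5, the cadherin of endothelial junctions, was at 89.2, 110 and 84.2 CPM under normoxia and 195, 335 and 320 CPM after hyperoxia in C57BL/6J, and at 41.9, 61.3 and 70.2 CPM and 200, 266 and 274 CPM in DBA/2J (log2 fold change 1.75, SE 0.16, edgeR adjusted p = 1.18e-06). Both genes were higher in every normoxia-hyperoxia library of a strain.

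Markers of the distal segments moved in both directions. Of 16 markers of the loop of Henle and distal convoluted tubule 8 rose and 2 fell (median 0.60), and of 12 principal cell markers 8 rose and 1 fell (median 0.77). The medians were 0.09 in C57BL/6J and 1.02 in DBA/2J for the loop and distal tubule, and 0.38 and 0.89 for principal cells. Summed, the markers of the loop and distal tubule took 19700 to 25500 CPM under normoxia and 19800 to 30100 CPM after hyperoxia in C57BL/6J, which overlapped, and 9410 to 10300 CPM and 23700 to 26600 CPM in DBA/2J, which did not. Without C57BL/6J normoxia-hyperoxia replicate 2, 4 markers of the loop and distal tubule fell. Without DBA/2J normoxia-hyperoxia replicate 1 the principal cell median was 0.43, and 2 principal cell markers fell, as they did without C57BL/6J normoxia replicate 1 or normoxia-hyperoxia replicate 2. Slc12a3, the thiazide-sensitive cotransporter of the distal convoluted tubule, was at 3180, 2240 and 2280 CPM under normoxia and 5300, 3450 and 5990 CPM after hyperoxia in C57BL/6J, and at 1320, 1790 and 1830 CPM and 5510, 6570 and 5980 CPM in DBA/2J (log2 fold change 1.31, SE 0.14, edgeR adjusted p = 4.49e-07). Umod, which encodes uromodulin of the thick ascending limb, was at 6460, 10600 and 9020 CPM under normoxia and 8140, 12500 and 4660 CPM after hyperoxia in C57BL/6J, and at 3020, 1900 and 1470 CPM and 6170, 5930 and 4600 CPM in DBA/2J. Its arms overlapped in C57BL/6J, and the mean change did not pass the test (log2 fold change 0.58, SE 0.26, edgeR adjusted p = 0.0587). It passed without C57BL/6J normoxia-hyperoxia replicate 3 (adjusted p = 0.00869, edgeR) and without DBA/2J normoxia replicate 1 (adjusted p = 0.0153, edgeR). With no filter on low counts it also passed (adjusted p = 4.25e-09, edgeR). The fold change of Umod was then the same, so that pass turned on the estimated spread and adds no support for a rise. Cldn10, a claudin of the loop and the proximal tubule, changed by -1.81 (SE 0.29), and Kl, the coreceptor klotho of the distal tubule, changed by -0.51 (SE 0.12). In bulk slices, fewer cells of a type and less RNA per cell cannot be told apart, and CPM are shares of a library, so a fall in one cell type raises the shares of the others.

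Tissues that could have been carried along with the slices gave little signal. None of 6 adipocyte markers passed the filter on low counts, and their summed level was at most 0.213 CPM in the 12 libraries. Skeletal muscle markers summed to at most 1.96 CPM and urothelium markers to at most 3.57 CPM. Of 9 adrenal markers 2 were tested and both rose, Star and Akr1b7, from sums of 4.27 to 5.6 CPM under normoxia to 15 to 29.4 CPM. Of 5 tested red cell genes 2 rose, Hbb-bs (1.01, SE 0.17) and Hba-a1 (0.62, SE 0.18), each of which shares reads with a close copy, and 4 rose when library totals were used for scaling.

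**Figure D2:**
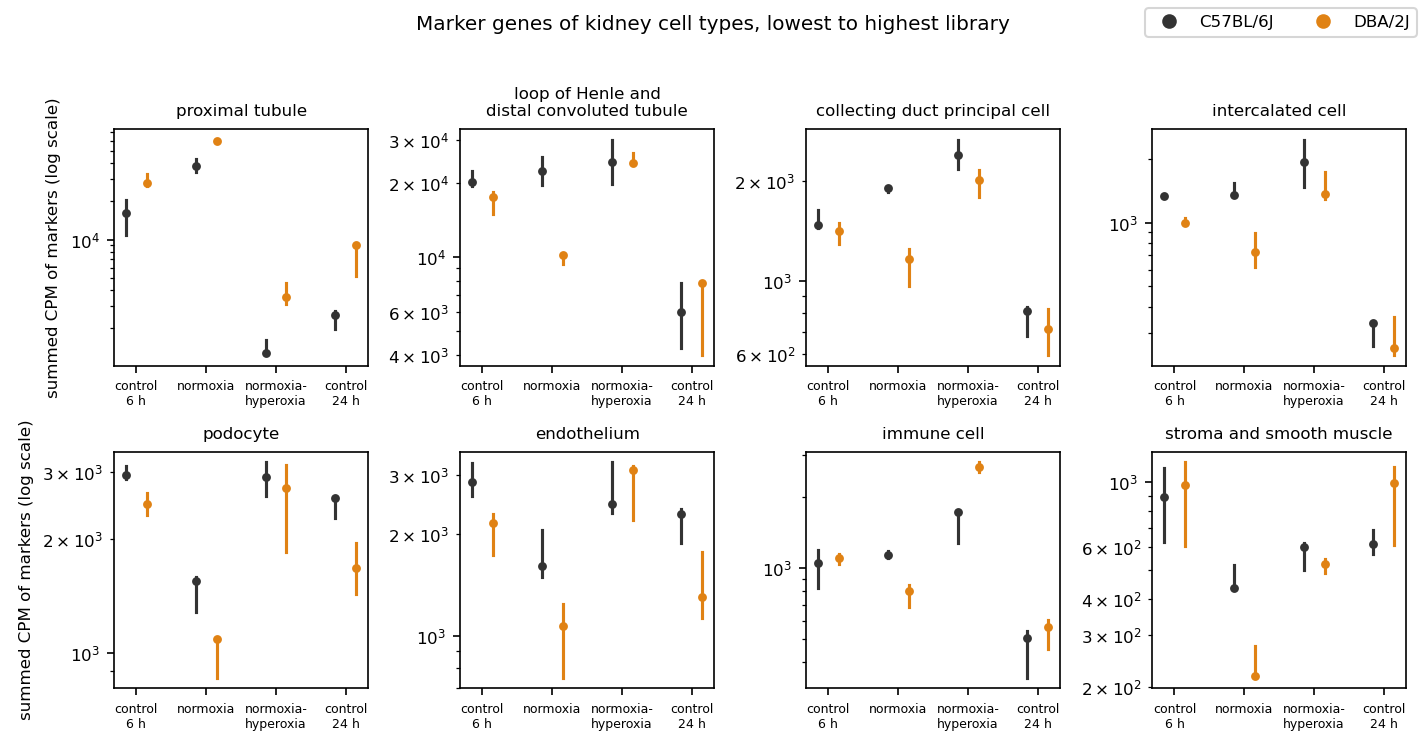
Summed CPM of the marker genes of 8 kidney cell types on a log axis, for C57BL/6J (dark) and DBA/2J (orange), as the median (point) and the range (line) of 3 libraries, with the 6 h and 24 h controls beside the arms. The proximal tubule sum is lower after hyperoxia in both strains, and the podocyte, endothelial and immune sums are higher.

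Immediate early genes, which are transcribed within minutes of a stimulus without new protein, were higher throughout the normoxia-hyperoxia arm. All 20 genes of the list rose with a median log2 fold change of 4.69, and none overlapped between the arms. Fos, a subunit of AP-1, was at 4.85, 7.72 and 5.46 CPM under normoxia and 1570, 1630 and 1650 CPM after hyperoxia in C57BL/6J, and at 5.2, 9.12 and 15.2 CPM and 1280, 1120 and 1310 CPM in DBA/2J. It rose by 7.44 (SE 0.24, edgeR adjusted p = 4.35e-11), by 8.07 in C57BL/6J and 6.80 in DBA/2J. Jun, its partner in AP-1, was at 39.8, 68.1 and 50.4 CPM under normoxia and 1490, 1770 and 1320 CPM after hyperoxia in C57BL/6J, and at 43.4, 52.8 and 109 CPM and 1310, 1260 and 1410 CPM in DBA/2J (log2 fold change 4.48, SE 0.24, edgeR adjusted p = 8.3e-09). The AP-1 members as a group had a median of 6.42, the other factors 4.18.

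Fosl1, the Fos-related subunit FRA-1, was barely detected under normoxia and among the largest rises of all genes. It stood at 0, 0.0495 and 0.102 CPM (C57BL/6J) and 0.0819, 0.0521 and 0.168 CPM (DBA/2J) under normoxia, and at 176, 133 and 183 CPM (C57BL/6J) and 176, 190 and 242 CPM (DBA/2J) after hyperoxia. In C57BL/6J the 3 normoxia libraries held 3 counts in all, and the ratio of the pooled rates was 3360 (95% interval 1150 to 16300), an interval that covers counting error only. Fosb was at 0.7, 1.83 and 0.561 CPM under normoxia and 878, 1240 and 837 CPM after hyperoxia in C57BL/6J, and at 0.737, 1.2 and 2.69 CPM and 703, 606 and 871 CPM in DBA/2J (log2 fold change 9.30, SE 0.31, edgeR adjusted p = 2.23e-10). Atf3, a stress-induced repressor of the same family, was at 2.23, 2.82 and 2.19 CPM under normoxia and 1470, 1840 and 1110 CPM after hyperoxia in C57BL/6J, and at 1.47, 1.25 and 1.47 CPM and 1070, 1160 and 1340 CPM in DBA/2J (log2 fold change 9.40, SE 0.17, edgeR adjusted p = 4.22e-15). Egr1, a zinc finger factor induced by growth signals, rose by 5.76 (SE 0.33), Klf6 by 5.08 (SE 0.10), Nr4a1 by 4.90 (SE 0.33) and Myc by 4.00 (SE 0.12). In the 24 h controls, which were in neither arm, Fos was at 138 ± 7.61 CPM (C57BL/6J) and 110 ± 14.8 CPM (DBA/2J) (SD, n = 3). The 6 h controls held 504 ± 47.7 CPM and 425 ± 67.9 CPM of Fos in the same order (SD, n = 3).

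Most chaperones of the heat shock response rose, while the heat shock factors themselves did not pass the test. Of 22 genes 19 rose and 0 fell (median 1.60): 13 of 14 chaperones, all 6 cochaperones and neither factor. The count of falls was 1 without C57BL/6J normoxia-hyperoxia replicate 1 and 1 without DBA/2J normoxia-hyperoxia replicate 3. Hspa1b, an inducible HSP70 whose promoter carries the heat shock element shown above, was at 12.2, 16.8 and 12.2 CPM under normoxia and 5910, 3580 and 3930 CPM after hyperoxia in C57BL/6J, and at 4.42, 4.64 and 8.92 CPM and 2590, 3500 and 2950 CPM in DBA/2J. The change was 8.57 (SE 0.23, edgeR adjusted p = 2.11e-12). Its near-identical copy Hspa1a changed by 8.54 (SE 0.22), and reads may have been split between the copies. Hspb1, the small heat shock protein HSP25, was at 9.4, 11 and 9.54 CPM under normoxia and 1340, 1090 and 1100 CPM after hyperoxia in C57BL/6J, and at 6.14, 6.2 and 7.23 CPM and 510, 741 and 682 CPM in DBA/2J (log2 fold change 6.66, SE 0.12, edgeR adjusted p = 2.9e-15). Dnajb1, the HSP40 partner of HSP70, was at 33.4, 41.2 and 36.8 CPM under normoxia and 1580, 1110 and 1080 CPM after hyperoxia in C57BL/6J, and at 31.8, 34.2 and 37.8 CPM and 798, 952 and 1050 CPM in DBA/2J (log2 fold change 4.83, SE 0.12, edgeR adjusted p = 6.2e-14). No normoxia-hyperoxia library came near the normoxia range for these genes. Hsf1, the factor that activates them through its own protein state, differed by 0.13 (SE 0.07, edgeR adjusted p = 0.12). It passed as a rise when library totals were used for scaling (adjusted p = 0.0186, edgeR) and with all 48 libraries in the fit (adjusted p = 0.0252, edgeR). Hsf2, the other factor, had effects of 0.26 in C57BL/6J and -0.58 in DBA/2J that differed (interaction adjusted p = 0.00458, edgeR), with a mean of -0.16 (SE 0.09) that did not pass, except as a fall without DBA/2J normoxia-hyperoxia replicate 3 (adjusted p = 0.047, edgeR). Mean levels of Hspa1b in the 24 h controls were 619 ± 76.6 CPM and 523 ± 79.1 CPM in C57BL/6J and DBA/2J (SD, n = 3), and in the 6 h controls 1640 ± 725 CPM and 469 ± 7.01 CPM (SD, n = 3).

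The factors of the integrated stress response rose, and so did most of its targets. All 6 factors and 11 of 16 tested targets rose, and 4 targets fell (list median 3.00). Ddit3, the factor CHOP, was at 8.75, 8.02 and 9.69 CPM under normoxia and 155, 88.5 and 103 CPM after hyperoxia in C57BL/6J, and at 9.87, 8.29 and 9.29 CPM and 64.3, 109 and 110 CPM in DBA/2J (log2 fold change 3.44, SE 0.18, edgeR adjusted p = 7.46e-09). Atf4, the central factor of the response, rose by 2.62 (SE 0.09, edgeR adjusted p = 1.87e-12). Ppp1r15a, the phosphatase subunit GADD34 that ends the response, rose by 5.54 (SE 0.11), and Chac1, a glutathione-degrading enzyme, by 5.92 (SE 0.27). Asns, which makes asparagine, rose by 3.49 (SE 0.12). Shmt2, the mitochondrial enzyme that makes glycine from serine, moved the other way, from 168, 127 and 141 CPM (C57BL/6J) and 305, 291 and 280 CPM (DBA/2J) to 29.4, 31.4 and 29.4 CPM (C57BL/6J) and 74.5, 60.9 and 51.1 CPM (DBA/2J) (log2 fold change -2.34, SE 0.10, edgeR adjusted p = 1.68e-11).

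Genes of the unfolded protein response of the endoplasmic reticulum moved in both directions, in shares near those of all genes. Of 22 genes 8 rose and 10 fell, with a median of -0.13, which was 0.13 in C57BL/6J and -0.31 in DBA/2J. The sensors Ern1 (0.98, SE 0.07), Atf6 and Eif2ak3 rose. Hspa5, the chaperone BiP, was at 464, 444 and 333 CPM under normoxia and 2190, 1440 and 1750 CPM after hyperoxia in C57BL/6J, and at 543, 444 and 544 CPM and 1220, 1450 and 1830 CPM in DBA/2J (log2 fold change 1.74, SE 0.13, edgeR adjusted p = 1.29e-08). Dnajb9, its cochaperone, rose by 1.48 (SE 0.10). Xbp1, the factor spliced by IRE1, did not pass the test (log2 fold change 0.14, SE 0.09, edgeR adjusted p = 0.182), though it did without C57BL/6J normoxia-hyperoxia replicate 2 (adjusted p = 0.0284, edgeR). Pdia3, a disulfide isomerase, changed by -0.85 (SE 0.06, edgeR adjusted p = 7.18e-09) and Sel1l, a subunit of the degradation complex, by -0.74 (SE 0.06, edgeR adjusted p = 3.12e-08), both downwards.

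**Figure D3:**
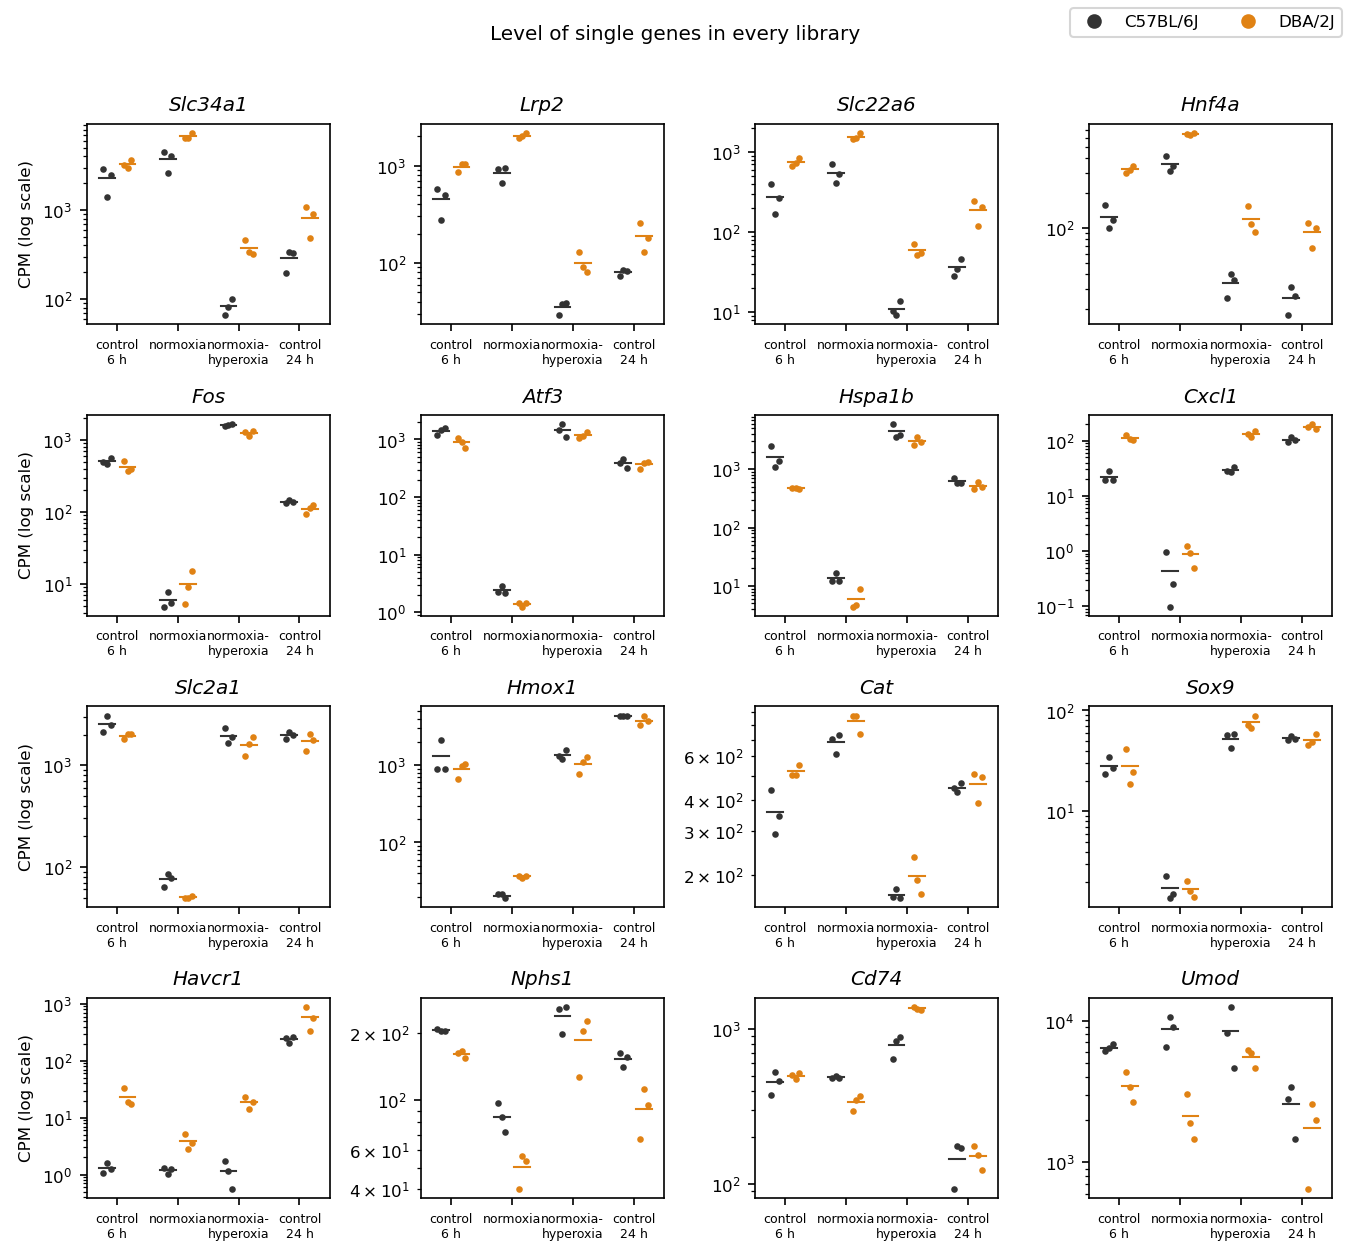
CPM of 16 genes in every library on log axes, for C57BL/6J (dark) and DBA/2J (orange), with a bar at the mean of 3 libraries in the 6 h controls, normoxia, normoxia-hyperoxia and the 24 h controls. Slc34a1, Lrp2, Slc22a6, Hnf4a and Cat are lower after hyperoxia than in normoxia without overlap, Fos, Atf3, Hspa1b, Cxcl1, Slc2a1, Hmox1, Sox9, Nphs1 and Cd74 are higher, and Umod and Havcr1 overlap in C57BL/6J.

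Targets of the hypoxia-inducible factors were mostly higher after hyperoxia. Of 18 targets 13 rose and 2 fell (median 0.92), and of 8 sensors and factors 4 rose and 1 fell (median 0.21). In all 3 genes of the list fell, and 5 without C57BL/6J normoxia-hyperoxia replicate 1. Slc2a1, the glucose transporter GLUT1, was at 64.1, 84.9 and 78.7 CPM under normoxia and 2310, 1660 and 1910 CPM after hyperoxia in C57BL/6J, and at 50, 49.6 and 52.2 CPM and 1240, 1630 and 1910 CPM in DBA/2J (log2 fold change 4.74, SE 0.13, edgeR adjusted p = 1.31e-13). Adm, the vasodilator peptide adrenomedullin, was at 9.32, 7.72 and 7.45 CPM under normoxia and 283, 177 and 260 CPM after hyperoxia in C57BL/6J, and at 7.57, 11.3 and 16 CPM and 146, 201 and 249 CPM in DBA/2J (log2 fold change 4.39, SE 0.21, edgeR adjusted p = 4.92e-09). Vegfa, the vascular growth factor, was at 285, 274 and 268 CPM under normoxia and 785, 677 and 776 CPM after hyperoxia in C57BL/6J, and at 219, 261 and 282 CPM and 555, 719 and 767 CPM in DBA/2J (log2 fold change 1.34, SE 0.08, edgeR adjusted p = 1.08e-09). For all 3 genes the arms lay apart in both strains. Ero1l, an oxidase of the endoplasmic reticulum, rose by 3.28 (SE 0.17), Ankrd37 by 3.01 (SE 0.22), and Egln3, the oxygen sensor PHD3 that is itself a target, by 1.87 (SE 0.09).

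Of the 2 targets that fell, Mxi1 changed by -0.20 (SE 0.07) and Car9 by far more. Car9, the gene for a membrane carbonic anhydrase that is often used as a marker of HIF-1 activity, was at 10.8, 8.07 and 9.69 CPM under normoxia and 0.106, 0.159 and 0.101 CPM after hyperoxia in C57BL/6J, and at 4.71, 4.43 and 4.16 CPM and 0.574, 0.534 and 0.351 CPM in DBA/2J. It changed by -4.79 (SE 0.20, edgeR adjusted p = 8.41e-12), by -6.19 in C57BL/6J and -3.39 in DBA/2J (interaction adjusted p = 0.00141, edgeR). With all 48 libraries in the fit the strain difference was 2.89 and did not pass (adjusted p = 0.113, edgeR). In the 24 h controls its level was 6.36 ± 2.22 CPM (C57BL/6J) and 4.01 ± 1.43 CPM (DBA/2J) (SD, n = 3). Bnip3, a mitophagy receptor, rose by 0.47 (SE 0.08), and Pdk1, which blocks entry of pyruvate into mitochondria, by 0.59 (SE 0.05). Ndrg1, another widely used target, did not pass the test over both strains (log2 fold change -0.19, SE 0.11, edgeR adjusted p = 0.146), and its effects in the strains were 0.42 and -0.79 (interaction adjusted p = 0.00242, edgeR). Hif1a, the oxygen-regulated subunit of HIF-1, rose by 1.69 (SE 0.07, edgeR adjusted p = 1.56e-11) and Epas1, that of HIF-2, by 0.31 (SE 0.11, edgeR adjusted p = 0.0208). The change of Epas1 did not pass without C57BL/6J normoxia replicate 3, C57BL/6J normoxia-hyperoxia replicate 2 or DBA/2J normoxia-hyperoxia replicate 3 (adjusted p = 0.0575, 0.0566 and 0.0831, edgeR). The sensor gene Egln1 did not pass the test (log2 fold change 0.11, SE 0.06, edgeR adjusted p = 0.126) unless C57BL/6J normoxia-hyperoxia replicate 2 was left out (adjusted p = 0.0371, edgeR), and Egln2 changed by -0.38 (SE 0.05, edgeR adjusted p = 1.34e-05).

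Most glycolytic genes rose. Of 18 genes 14 rose and 3 fell (median 0.49): 11 of 14 enzymes, both regulators and 1 of 2 lactate transporters rose. Hk2, the inducible hexokinase, was at 0.962, 1.04 and 1.17 CPM under normoxia and 58.6, 45.5 and 65.1 CPM after hyperoxia in C57BL/6J, and at 1.02, 1.3 and 1.14 CPM and 52.4, 91.5 and 103 CPM in DBA/2J (log2 fold change 5.85, SE 0.20, edgeR adjusted p = 4.74e-11). Pfkfb3, which makes the activator of phosphofructokinase, was at 31.8, 31.3 and 28.1 CPM under normoxia and 1420, 887 and 1240 CPM after hyperoxia in C57BL/6J, and at 13.7, 15.3 and 18 CPM and 667, 1060 and 1020 CPM in DBA/2J (log2 fold change 5.48, SE 0.15, edgeR adjusted p = 8.71e-13). Slc16a3, the lactate exporter MCT4, was at 0.787, 0.594 and 0.765 CPM under normoxia and 26.6, 20.7 and 28.2 CPM after hyperoxia in C57BL/6J, and at 0.655, 0.938 and 0.378 CPM and 32.6, 42.5 and 46 CPM in DBA/2J (log2 fold change 5.45, SE 0.16, edgeR adjusted p = 3.46e-13). For each of them every normoxia-hyperoxia library was above every normoxia library of its strain. Pfkp rose by 2.31 (SE 0.09) and Pkm by 1.75 (SE 0.07). By contrast Gapdh changed by -0.29 (SE 0.08, edgeR adjusted p = 0.0047), Ldha did not pass the test (log2 fold change 0.01, SE 0.08, edgeR adjusted p = 0.9), and Slc16a1, the carrier MCT1, changed by -1.49 (SE 0.10).

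Gluconeogenesis, a task of the proximal tubule in the kidney, was lower. Of 7 genes 6 fell (median -3.11), and Pck2, the mitochondrial form of PEP carboxykinase, was the 1 that did not pass. G6pc, which releases free glucose, was at 233, 139 and 230 CPM under normoxia and 4.05, 6.76 and 9.17 CPM after hyperoxia in C57BL/6J, and at 748, 860 and 913 CPM and 43.1, 37 and 28.2 CPM in DBA/2J (log2 fold change -4.81, SE 0.21, edgeR adjusted p = 1.46e-09). Pck1, the cytosolic PEP carboxykinase, changed by -3.25 (SE 0.15) and Fbp1, fructose bisphosphatase, by -2.81 (SE 0.17). These falls came together with those of the proximal tubule markers given above, and the part of those cells in them was not tested.

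Genes of the NRF2 response moved in both directions. Of 23 genes 12 rose and 8 fell, with a median of 0.17, which was 0.11 without C57BL/6J normoxia-hyperoxia replicate 3 and 0.10 without DBA/2J normoxia-hyperoxia replicate 3. Hmox1, heme oxygenase 1, was at 21.3, 21.3 and 19.2 CPM under normoxia and 1320, 1190 and 1590 CPM after hyperoxia in C57BL/6J, and at 37.3, 35.1 and 36.6 CPM and 771, 1090 and 1270 CPM in DBA/2J (log2 fold change 5.35, SE 0.13, edgeR adjusted p = 3.48e-14). Srxn1, sulfiredoxin, which repairs oxidised peroxiredoxins, was at 74.7, 62.7 and 64.4 CPM under normoxia and 1760, 1190 and 1890 CPM after hyperoxia in C57BL/6J, and at 69, 76.8 and 70.4 CPM and 988, 1290 and 1600 CPM in DBA/2J (log2 fold change 4.28, SE 0.14, edgeR adjusted p = 2.38e-12). Txnrd1, thioredoxin reductase, was at 112, 99.4 and 97.8 CPM under normoxia and 1340, 969 and 1330 CPM after hyperoxia in C57BL/6J, and at 109, 118 and 110 CPM and 712, 918 and 1150 CPM in DBA/2J (log2 fold change 3.21, SE 0.12, edgeR adjusted p = 3.32e-12). All of these were several times higher after hyperoxia in every library. Slc7a11, the cystine importer, rose by 5.34 (SE 0.24), from at most 0.262 CPM under normoxia to 3.62 CPM or more. Nfe2l2, which encodes NRF2, rose by 1.33 (SE 0.06), and Keap1, its inhibitor, changed by -0.33 (SE 0.07).

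The classic target Nqo1, a quinone reductase, was lower, at 46.1, 39.8 and 41.2 CPM under normoxia and 24.4, 18.8 and 23.9 CPM after hyperoxia in C57BL/6J, and at 23.9, 23.1 and 20.2 CPM and 20, 17.8 and 21.8 CPM in DBA/2J (log2 fold change -0.63, SE 0.08, edgeR adjusted p = 5.87e-06). Gclm, the regulatory subunit of glutathione synthesis, changed by -0.73 (SE 0.05, edgeR adjusted p = 3.83e-09), whereas Gclc, the catalytic subunit, rose by 1.52 (SE 0.13, edgeR adjusted p = 1.21e-07). Prdx1, a peroxiredoxin, changed by -0.88 (SE 0.08). In the 24 h controls Nqo1 stood at 185 ± 19.4 CPM (C57BL/6J) and 114 ± 8.16 CPM (DBA/2J) (SD, n = 3), and Gclm at 510 ± 41.3 CPM and 289 ± 9.78 CPM (SD, n = 3).

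Genes of antioxidant enzymes were mostly lower. Of 19 genes 15 fell and 3 rose (median -0.91): all 3 superoxide dismutase genes, 8 of 10 for peroxide removal, 3 of 5 for thiol reduction and the oxidant producer Nox4 fell. Nox4 is not itself an antioxidant enzyme, and neither is Txnip, which was listed under thiol reduction and rose (0.57, SE 0.11). Sod3, the secreted form, changed by -3.54 (SE 0.09), Sod1 by -1.30 (SE 0.08) and Sod2, the mitochondrial form, by -0.64 (SE 0.06). Cat, catalase of the peroxisome, was at 706, 610 and 729 CPM under normoxia and 162, 175 and 161 CPM after hyperoxia in C57BL/6J, and at 871, 875 and 740 CPM and 236, 190 and 167 CPM in DBA/2J (log2 fold change -2.14, SE 0.10, edgeR adjusted p = 2.52e-11). Gpx3, the glutathione peroxidase that the proximal tubule secretes into plasma, was at 15700, 9960 and 16600 CPM under normoxia and 1270, 1640 and 2040 CPM after hyperoxia in C57BL/6J, and at 20700, 21300 and 19900 CPM and 4320, 3430 and 2990 CPM in DBA/2J (log2 fold change -2.90, SE 0.16, edgeR adjusted p = 2.63e-10). Gpx4, which protects membranes from ferroptosis, changed by -1.10 (SE 0.08). Nox4, the oxidase that produces hydrogen peroxide in the tubule, changed by -2.78 (SE 0.21, edgeR adjusted p = 3.17e-07). The part of the proximal tubule in these values was not tested.

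**Figure D4:**
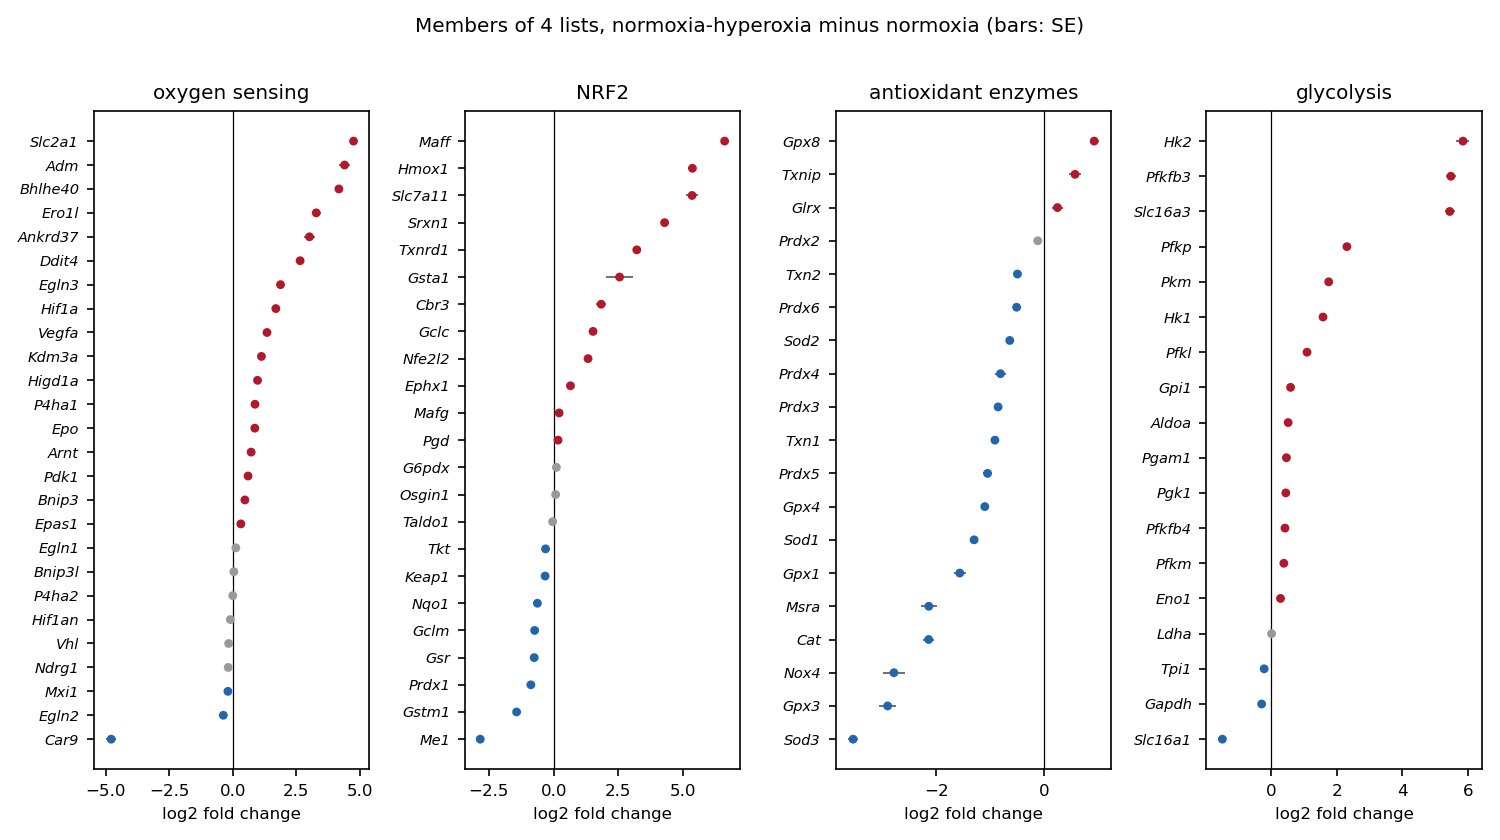
Log2 fold change (points) and SE (bars) of each gene in 4 lists, normoxia-hyperoxia minus normoxia over both strains, with genes that passed the threshold in red (higher) or blue (lower) and the others in grey. Car9 at -4.79 stands apart from the other oxygen sensing genes, and Maff, Hmox1, Slc7a11 and Srxn1 stand apart at the top of the NRF2 list.

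Metallothionein genes rose, and most iron genes fell. Mt2, a zinc-binding metallothionein, was at 30.3, 24.5 and 32.6 CPM under normoxia and 612, 532 and 622 CPM after hyperoxia in C57BL/6J, and at 18.3, 15.2 and 16.4 CPM and 395, 553 and 627 CPM in DBA/2J (log2 fold change 4.56, SE 0.12, edgeR adjusted p = 3.79e-13). Mt1 rose by 3.14 (SE 0.10). Among 8 iron genes 2 rose, Hmox1 and the transferrin receptor gene Tfrc, and 6 fell, among them Aco1, the iron regulatory protein IRP1 (-1.37, SE 0.07). Slc30a1, a zinc exporter, changed by -1.16 (SE 0.07), the only fall among the 3 genes grouped with metallothioneins.

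Most cytokine and chemokine genes rose, some of them from near absence. Of 21 genes 19 passed the filter on low counts, of which 18 rose and 1 fell, with a median of 5.12. With 4 members that were at 0 counts in a group set to the lower bound that 3 counts a library allow, the median was 4.20. As such members passed the filter through the normoxia-hyperoxia libraries, the count and medians are a description only. Il6, an acute phase cytokine, was at 0, 0.099 and 0 CPM (C57BL/6J) and 0, 0 and 0 CPM (DBA/2J) under normoxia and at 18.4, 29.9 and 31.1 CPM (C57BL/6J) and 18.4, 29.7 and 41.9 CPM (DBA/2J) after hyperoxia. For DBA/2J this was at least 222-fold higher, against a floor of 3 counts a library, and in C57BL/6J, with 2 normoxia counts in all, the ratio was 843 (95% interval 233 to 6970). Cxcl1, a neutrophil chemokine, was at 0.962, 0.099 and 0.255 CPM under normoxia and 28.5, 26.7 and 33.5 CPM after hyperoxia in C57BL/6J, and at 1.23, 0.938 and 0.505 CPM and 131, 115 and 148 CPM in DBA/2J (log2 fold change 6.50, SE 0.24, edgeR adjusted p = 2.37e-10). Lif, a cytokine of the IL-6 family, was at 0.437, 0.396 and 0.357 CPM under normoxia and 311, 220 and 256 CPM after hyperoxia in C57BL/6J, and at 0.778, 0.73 and 0.547 CPM and 249, 280 and 268 CPM in DBA/2J (log2 fold change 8.87, SE 0.12, edgeR adjusted p = 3.51e-16). The arms stayed apart in both strains for these genes. Cxcl2 rose by 9.75 (SE 0.22), Cxcl10 by 6.10 (SE 0.19), Tnf by 5.12 (SE 0.23) and Ccl2, which draws monocytes, by 3.88 (SE 0.14). Il34, a macrophage growth factor made by tubules, was the 1 that fell (log2 fold change -0.73, SE 0.12, edgeR adjusted p = 8.47e-05), with overlap in C57BL/6J.

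All 16 genes of the NF-kappaB list rose (median 2.89), subunits, inhibitors and targets alike. Nfkbia, the inhibitor that NF-kappaB itself induces, was at 26.4, 34.8 and 29 CPM under normoxia and 357, 341 and 358 CPM after hyperoxia in C57BL/6J, and at 22.3, 25 and 26.5 CPM and 256, 275 and 369 CPM in DBA/2J (log2 fold change 3.49, SE 0.10, edgeR adjusted p = 1.76e-13). Tnfaip3, the inhibitor A20, rose by 4.60 (SE 0.09), the subunit gene Rela by 2.27 (SE 0.07), Ptgs2, cyclooxygenase 2, by 5.21 (SE 0.17) and Icam1, an adhesion molecule, by 3.29 (SE 0.09).

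Interferon-stimulated genes rose as well, 22 of 22 with a median of 2.36. Ifit1, an antiviral RNA-binding protein, was at 7.7, 7.18 and 7.3 CPM under normoxia and 267, 216 and 258 CPM after hyperoxia in C57BL/6J, and at 2.09, 2.29 and 2.61 CPM and 65.9, 52 and 112 CPM in DBA/2J (log2 fold change 4.97, SE 0.19, edgeR adjusted p = 3.61e-10). Isg15, a ubiquitin-like modifier, was at 5.03, 4.95 and 3.78 CPM under normoxia and 68.2, 77.2 and 85.4 CPM after hyperoxia in C57BL/6J, and at 1.8, 1.72 and 2.52 CPM and 33.5, 32.6 and 61.6 CPM in DBA/2J (log2 fold change 4.15, SE 0.19, edgeR adjusted p = 9.75e-10). Every normoxia-hyperoxia library exceeded all normoxia libraries of its strain for both genes. Oasl1 rose by 5.42 (SE 0.20) and Irf1, an interferon-induced factor, by 3.38 (SE 0.10). The 3 immunoproteasome subunit genes Psmb8 (1.31), Psmb9 (0.84) and Psmb10 (0.80) rose, within a proteasome list of 37 in which 7 rose and 18 fell (median -0.12).

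Immune cell markers moved beside these genes, and more in DBA/2J. Of 21 markers 14 rose and 0 fell over both strains (median 0.63), with medians of 0.09 in C57BL/6J and 1.12 in DBA/2J. The interaction passed for 15 of 21, against 18.2% of all genes. Summed, the markers took 1110 to 1180 CPM in C57BL/6J normoxia and 1280 to 1760 CPM after hyperoxia, and in DBA/2J 683 to 847 CPM and 2550 to 2800 CPM. Cd74, the class II invariant chain, was at 484, 497 and 483 CPM under normoxia and 639, 840 and 889 CPM after hyperoxia in C57BL/6J, and at 295, 345 and 371 CPM and 1390, 1350 and 1330 CPM in DBA/2J (log2 fold change 1.26, SE 0.08, edgeR adjusted p = 2.12e-09). Ptprc, the pan-leukocyte marker CD45, was at 25.7, 28.2 and 24.2 CPM under normoxia and 17.6, 22.5 and 28 CPM after hyperoxia in C57BL/6J, and at 16, 19.2 and 17.9 CPM and 41.1, 42 and 33.3 CPM in DBA/2J. It overlapped between the arms in C57BL/6J, with effects of -0.20 there and 0.96 in DBA/2J (interaction adjusted p = 0.00143, edgeR). Csf1r, a receptor of macrophages, did not pass over both strains (-0.09, SE 0.12). The part of immune cells in the cytokine and interferon results was not tested.

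Genes that mark injured tubule cells were higher in the hyperoxia arm, though 2 of them overlapped between the arms. All 22 genes of the list rose (median 2.68), 20 of them without overlap. Sox9, a factor of repairing tubule cells, was at 2.27, 1.39 and 1.53 CPM under normoxia and 56.7, 42.7 and 58.1 CPM after hyperoxia in C57BL/6J, and at 2.05, 1.62 and 1.43 CPM and 71.9, 67.1 and 89.1 CPM in DBA/2J (log2 fold change 5.10, SE 0.14, edgeR adjusted p = 5.14e-13). Krt18, a keratin of simple epithelia, was at 16.7, 19.5 and 14.5 CPM under normoxia and 708, 450 and 679 CPM after hyperoxia in C57BL/6J, and at 12.4, 17 and 16.7 CPM and 452, 467 and 577 CPM in DBA/2J (log2 fold change 5.01, SE 0.14, edgeR adjusted p = 9.16e-13). Lcn2, the urinary injury marker NGAL, was at 1.27, 3.42 and 3.67 CPM under normoxia and 33.7, 28.9 and 19.5 CPM after hyperoxia in C57BL/6J, and at 2.78, 0.521 and 1.09 CPM and 18.4, 20.1 and 23.4 CPM in DBA/2J (log2 fold change 3.45, SE 0.33, edgeR adjusted p = 2.12e-06). Krt20, which appears in injured tubules, rose by 7.08 (SE 0.32) and the hyaluronan receptor gene Cd44 by 3.47 (SE 0.15). Havcr1, which encodes KIM-1 of injured proximal tubules, was at 1.31, 1.04 and 1.28 CPM under normoxia and 1.76, 1.15 and 0.554 CPM after hyperoxia in C57BL/6J, and at 5.08, 2.87 and 3.66 CPM and 22.9, 14.2 and 18.8 CPM in DBA/2J. The C57BL/6J arms overlapped (-0.08), those of DBA/2J did not (2.10), and the strains' effects differed (interaction adjusted p = 0.00685, edgeR). With all 48 libraries in the fit that difference was 2.29 and did not pass (adjusted p = 0.0973, edgeR). In the 24 h controls Havcr1 was at 240 ± 27.5 CPM (C57BL/6J) and 597 ± 279 CPM (DBA/2J) (SD, n = 3). Itgb6, an integrin subunit of injured epithelia, was at 96, 107 and 97.8 CPM under normoxia and 172, 148 and 156 CPM after hyperoxia in C57BL/6J, and at 124, 132 and 124 CPM and 104, 135 and 145 CPM in DBA/2J. It rose as the mean of both strains (log2 fold change 0.25, SE 0.07, edgeR adjusted p = 0.0059), a rise that did not pass in the additive model or with all 48 libraries in the fit (adjusted p = 0.113 and 0.062, edgeR), with effects of 0.66 in C57BL/6J and -0.16 in DBA/2J (interaction adjusted p = 0.00178, edgeR).

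Several genes of the cornified envelope, a structure of skin and other squamous epithelia, were at or near 0 counts under normoxia and were detected in every normoxia-hyperoxia library. Of 14 genes 8 passed the filter on low counts, of which 7 rose and 1 fell, with a median of 8.83, or 5.51 with the 4 members that were at 0 counts in a group set to their bound. Members near 0 under normoxia passed the filter through the normoxia-hyperoxia libraries and so had to be higher there, and the count and medians are given as a description only. Sprr1a, a cross-linked precursor with the pair of AP-1 motifs shown above, was at 0.35, 0 and 0.102 CPM under normoxia and 979, 642 and 1030 CPM after hyperoxia in C57BL/6J, and at 0.368, 0.156 and 0.252 CPM and 569, 778 and 1040 CPM in DBA/2J (log2 fold change 11.86, SE 0.32, edgeR adjusted p = 1.49e-11). Sprr2f had no count in any normoxia library and 102, 43.8 and 95.2 CPM (C57BL/6J) and 24.3, 23.7 and 36.8 CPM (DBA/2J) after hyperoxia, at least 557-fold (C57BL/6J) or 209-fold (DBA/2J) higher against a floor of 3 counts a library. Sprr2g was at 0.0437, 0 and 0 CPM (C57BL/6J) and 0.123, 0.104 and 0 CPM (DBA/2J) under normoxia and 86.5, 46.6 and 83.1 CPM (C57BL/6J) and 46.8, 56.2 and 72.9 CPM (DBA/2J) after hyperoxia. With 1 normoxia count in C57BL/6J its ratio there was 4370 (95% interval 783 to 173000). The Sprr2 genes are near-identical copies in a cluster, so their individual values are uncertain. Tgm1, the transglutaminase that cross-links the envelope, moved the other way, at 21.8, 22.4 and 28.7 CPM under normoxia and 1.86, 1.79 and 2.87 CPM after hyperoxia in C57BL/6J, and at 26.9, 26.6 and 23.9 CPM and 11.3, 6.94 and 7.57 CPM in DBA/2J (log2 fold change -2.60, SE 0.14, edgeR adjusted p = 2.53e-10). In the 24 h controls Sprr1a was at 6410 ± 601 CPM (C57BL/6J) and 5120 ± 1300 CPM (DBA/2J) (SD, n = 3).

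All 18 genes of the TGF-beta and YAP list rose (median 1.53). Ankrd1, a YAP target, was at 0.962, 3.32 and 3.06 CPM under normoxia and 87.3, 94.6 and 120 CPM after hyperoxia in C57BL/6J, and at 0.532, 1.09 and 1.01 CPM and 90.4, 101 and 129 CPM in DBA/2J (log2 fold change 6.07, SE 0.24, edgeR adjusted p = 7.17e-10). Its arms lay apart in both strains. Ccn1 rose by 4.77 (SE 0.25) and Ccn2, the connective tissue growth factor, by 2.37 (SE 0.12), while the ligand gene Tgfb1 rose by 1.14 (SE 0.11). Among matrix genes 20 of 28 tested rose and 5 fell (median 0.87). Plaur, the urokinase receptor, was at 5.34, 7.33 and 4.8 CPM under normoxia and 160, 138 and 195 CPM after hyperoxia in C57BL/6J, and at 2.33, 2.61 and 3.87 CPM and 161, 152 and 183 CPM in DBA/2J (log2 fold change 5.23, SE 0.13, edgeR adjusted p = 7.78e-13). Of 11 collagen genes 9 rose and 2 fell, and Col1a1, a fibrillar collagen, rose by 0.76 (SE 0.09). Mmp10, a stromelysin, had no count in any normoxia library and 2.61, 0.517 and 1.86 CPM (C57BL/6J) and 3.16, 2.31 and 3.81 CPM (DBA/2J) after hyperoxia. Timp3, a protease inhibitor of the tubule, changed by -1.03 (SE 0.11), by -0.33 in C57BL/6J and -1.73 in DBA/2J. Among EGF receptor genes 4 of 5 tested ligands rose, including Hbegf (4.46, SE 0.17) and Areg (5.26, SE 0.42), and the receptor gene Erbb3 changed by -1.28 (SE 0.06).

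Mitochondrial transcripts took a smaller share of the C57BL/6J libraries after hyperoxia and not of the DBA/2J libraries. The 13 protein genes of the mitochondrial genome took 22.5%, 25.4% and 23% of counts in C57BL/6J normoxia and 11.7%, 16.3% and 13% after hyperoxia. In DBA/2J they took 12.7%, 12.3% and 11.7%, and 17.1%, 12.4% and 10.7%. The mean difference over both strains was -4.38 percentage points, which did not pass an exact two-sided permutation test within strains (p = 0.065, 400 arrangements, smallest possible p 0.005). The differences were -9.93 points in C57BL/6J and 1.17 in DBA/2J. In DBA/2J the arms overlapped, and in C57BL/6J they did not. Without DBA/2J normoxia-hyperoxia replicate 1, which had the 17.1%, the mean difference was -5.30 points and passed (exact permutation p = 0.025). It did not pass without any other library (exact permutation p = 0.06 to 0.155).

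The counts of the 13 genes did not move together, although the genes are transcribed as long joint precursors. In all, 9 fell and 0 rose (median -1.61). Among the 4 that did not pass the test, mt-Nd4 was at 23200, 23900 and 23100 CPM under normoxia and 14800, 20500 and 17200 CPM after hyperoxia in C57BL/6J, and at 10900, 10900 and 10900 CPM and 22300, 15600 and 13900 CPM in DBA/2J. It differed by 0.03 (SE 0.13, edgeR adjusted p = 0.825), and mt-Nd1 and mt-Cytb differed by -0.24 (SE 0.14) and -0.28 (SE 0.15). Without DBA/2J normoxia-hyperoxia replicate 1 both of these passed as falls (adjusted p = 0.01 and 0.0106, edgeR), and likewise without C57BL/6J normoxia-hyperoxia replicate 2 (adjusted p = 0.0391 and 0.0215, edgeR). By contrast mt-Co3 was at 177, 176 and 201 CPM under normoxia and 4.85, 14.6 and 10.9 CPM after hyperoxia in C57BL/6J, and at 22.8, 25.3 and 14.8 CPM and 7.18, 5.16 and 4.92 CPM in DBA/2J (log2 fold change -3.09, SE 0.25, edgeR adjusted p = 8.38e-07). Large falls were also those of mt-Co2 (-2.70), mt-Atp8 (-3.05), mt-Atp6 (-3.14) and mt-Nd4l (-3.32). For mt-Co3 the fall was larger in C57BL/6J, -4.17 against -2.01 (interaction adjusted p = 0.0156, edgeR), a difference that did not pass without DBA/2J normoxia-hyperoxia replicate 1 (adjusted p = 0.0677, edgeR). The pairs mt-Atp8 with mt-Atp6 and mt-Nd4l with mt-Nd4 overlap in sequence. How the counting treated shared reads is not given in the sources used here, so these values are uncertain. Levels also lay far apart between other genes, with mt-Co3 at 201 CPM or below and mt-Nd4 at 10900 CPM or above. Whether the counting lowered mt-Co3, mt-Co2 or others was not tested. The count of falls, the median and the strain differences of these genes are therefore uncertain too.

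Nuclear genes of oxidative metabolism were mostly lower, by small amounts. Of 67 nuclear respiratory chain genes 60 fell and 0 rose (median -0.40), 36 of 37 for complex I, 4 of 4 for complex II, 8 of 9 for complex III, 7 of 10 for complex IV and 5 of 7 for complex V. Ndufb4 of complex I had the largest fall (log2 fold change -1.16, SE 0.09, edgeR adjusted p = 9.17e-09), and Sdha of complex II changed by -0.32 (SE 0.06). Of 13 citrate cycle genes 11 fell and 1 rose (median -0.41), the riser being Cs, citrate synthase (0.15, SE 0.06, edgeR adjusted p = 0.0351). The rise of Cs was lost without any of 8 libraries, namely C57BL/6J normoxia replicates 2 and 3 and normoxia-hyperoxia replicate 1, DBA/2J normoxia replicates 2 and 3 and all DBA/2J normoxia-hyperoxia replicates (adjusted p = 0.0564 to 0.165, edgeR). Ribosomal protein genes moved the other way: 57 of 77 rose and 1 fell (median 0.24), the faller being Rps27l (-0.88, SE 0.07), a stress-regulated paralog. A further ribosomal protein gene fell without C57BL/6J normoxia replicate 2 or DBA/2J normoxia-hyperoxia replicate 1. List medians as small as these have a direction only relative to the scaling of the libraries.

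Fatty acid oxidation fell most in the peroxisome and microsome. All 5 genes of those compartments fell (median -3.21), and of 19 mitochondrial genes 14 fell and 2 rose (median -0.50). Ehhadh, the peroxisomal bifunctional enzyme, was at 221, 246 and 258 CPM under normoxia and 36.3, 44.1 and 36.8 CPM after hyperoxia in C57BL/6J, and at 262, 282 and 274 CPM and 65.4, 57.8 and 48.6 CPM in DBA/2J (log2 fold change -2.53, SE 0.08, edgeR adjusted p = 1.06e-12). Acadm, a mitochondrial dehydrogenase, changed by -0.95 (SE 0.08) and Cpt1a, which admits fatty acids to mitochondria, by -0.47 (SE 0.06). Ppara, the factor that drives these genes, changed by -1.58 (SE 0.11, edgeR adjusted p = 4.77e-09). Pdk4, which spares glucose by blocking pyruvate oxidation, rose, at 42, 103 and 61.8 CPM under normoxia and 478, 556 and 491 CPM after hyperoxia in C57BL/6J, and at 5.16, 8.34 and 8.54 CPM and 323, 379 and 492 CPM in DBA/2J (log2 fold change 4.24, SE 0.23, edgeR adjusted p = 1.5e-08). Ppargc1a, the coactivator PGC-1alpha of mitochondrial biogenesis, rose by 1.21 (SE 0.09, edgeR adjusted p = 1.74e-08). The falls in this list came beside those of all 23 proximal tubule markers, whose part in them was not tested. Cholesterol synthesis was mixed, with 6 of 24 higher and 15 lower (median -0.51). Fdft1, squalene synthase, rose by 1.60 (SE 0.09).

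Most cell cycle genes did not pass the test. Of 27 genes 8 rose and 4 fell (median 0.12), 5 of 11 replication genes among the risers and 1 of 11 mitosis genes. Without DBA/2J normoxia-hyperoxia replicate 1 the list held 8 falls and a median of 0.01. The median was 0.07 without C57BL/6J normoxia-hyperoxia replicate 3 and 0.08 without DBA/2J normoxia-hyperoxia replicate 3. Mki67, a marker of dividing cells, was at 6.95, 6.78 and 5.36 CPM under normoxia and 9.9, 9.47 and 8.52 CPM after hyperoxia in C57BL/6J, and at 14.7, 12.7 and 12.1 CPM and 27.5, 14.4 and 12.7 CPM in DBA/2J (log2 fold change 0.43, SE 0.18, edgeR adjusted p = 0.0415). That rise did not pass without any of 9 libraries, among them all C57BL/6J libraries, DBA/2J normoxia replicates 2 and 3 and DBA/2J normoxia-hyperoxia replicate 1, and without the last of these it was 0.17 (adjusted p = 0.168, edgeR). Mcm4, a subunit of the replication helicase, rose by 1.40 (SE 0.11), and Mcm7, of the same complex, changed by -0.55 (SE 0.11). Among p53 genes 12 of 19 rose and 6 fell (median 0.60), and 2 fell when library totals were used for scaling. Cdkn1a, the cell cycle inhibitor p21, was at 7.7, 8.37 and 8.88 CPM under normoxia and 304, 260 and 373 CPM after hyperoxia in C57BL/6J, and at 19.4, 19.4 and 17.3 CPM and 250, 313 and 360 CPM in DBA/2J (log2 fold change 4.54, SE 0.11, edgeR adjusted p = 6.32e-14). Mdm2, the feedback inhibitor of p53, rose by 1.49 (SE 0.08), and Trp53inp1 changed by -0.75 (SE 0.07).

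Most executors of inflammatory and necroptotic cell death rose. Of 10 executor genes 9 rose and 0 fell (median 1.25). Casp4, the caspase that senses cytosolic lipopolysaccharide, rose by 3.48 (SE 0.20), Nlrp3, an inflammasome sensor, by 3.13 (SE 0.16), and the necroptosis genes Ripk3 by 2.81 (SE 0.14) and Mlkl by 2.67 (SE 0.15). Bid, which links death receptors to mitochondria, was at 47.3, 28.8 and 39.4 CPM under normoxia and 9.16, 9.27 and 11 CPM after hyperoxia in C57BL/6J, and at 82.7, 84.6 and 84.8 CPM and 25.2, 17.6 and 16.3 CPM in DBA/2J (log2 fold change -2.11, SE 0.14, edgeR adjusted p = 1.57e-08). Of 7 BCL2 family genes 4 rose and 2 fell, and 1 fell without C57BL/6J normoxia replicate 2 or DBA/2J normoxia-hyperoxia replicate 3.

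Most repressors of the circadian clock rose, while most of its activators did not. Of 11 repressors 10 rose and 1 fell (median 2.74), of 5 activators 1 rose and 2 fell (median -0.07), and of 3 output factors 2 fell. Per1, a core repressor that also responds to stress signals, was at 23.1, 21.9 and 28.1 CPM under normoxia and 134, 238 and 129 CPM after hyperoxia in C57BL/6J, and at 12.2, 12.9 and 16.9 CPM and 96.7, 112 and 99.9 CPM in DBA/2J (log2 fold change 2.74, SE 0.17, edgeR adjusted p = 3.65e-08). Bhlhe40, a repressor that is also a hypoxia target, rose by 4.17 (SE 0.13), and Nfil3 by 3.60 (SE 0.13). The output factors Hlf and Tef changed by -1.69 (SE 0.14) and -1.37 (SE 0.11). The labels do not give the hour of day at which slices were collected.

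The strains differed in size more than in direction. The interaction, DBA/2J minus C57BL/6J, passed for 3134 genes (18.2%), 1241 of them higher (7.2%) and 1893 lower (11%) in DBA/2J, and for 835 the difference was more than 2-fold. Among cell and response lists it passed for 12 of 22 heat shock genes, 11 of 22 unfolded protein response genes, 11 of 22 tubular injury genes and 17 of 37 proteasome genes, and for 2 of 22 interferon genes, 0 of 77 ribosomal protein genes and 1 of 67 nuclear respiratory chain genes. Hmox1 rose by 6.04 in C57BL/6J and 4.67 in DBA/2J (interaction adjusted p = 0.000746, edgeR). Il1b rose by 3.03 and 4.79 in the same order (interaction adjusted p = 9.72e-05, edgeR).

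Of the 5 genes with the smallest interaction p-values, all but Mlycd lay many times apart between the strains in normoxia itself. Gcnt1, which builds branched O-glycans, was at 277, 313 and 339 CPM under normoxia and 13.5, 17.7 and 13.2 CPM after hyperoxia in C57BL/6J, and at 3.28, 1.82 and 1.09 CPM and 29.5, 34.9 and 37.9 CPM in DBA/2J. It fell in C57BL/6J (-4.38) and rose in DBA/2J (3.85), so the mean over both strains did not pass (log2 fold change -0.27, SE 0.19, edgeR adjusted p = 0.215). That mean was 0.01 without DBA/2J normoxia replicate 1 and -0.44 without DBA/2J normoxia replicate 3 (adjusted p = 0.0182, edgeR). With no filter on low counts it was -0.27 and passed (adjusted p = 0.0141, edgeR). As the value was the same, that pass turned on the estimated spread. The interaction had an edgeR adjusted p of 9.38e-07. Hdc, histidine decarboxylase, which makes histamine, was at 0.306, 0.594 and 0.714 CPM under normoxia and 2.29, 2.07 and 2.42 CPM after hyperoxia in C57BL/6J, and at 410, 379 and 410 CPM and 47.2, 37.9 and 29.2 CPM in DBA/2J. Its effects were 2.07 in C57BL/6J and -3.56 in DBA/2J (interaction adjusted p = 9.38e-07, edgeR). Mlycd, malonyl-CoA decarboxylase, which relieves the block on fatty acid entry to mitochondria, was at 55.2, 43.4 and 47.3 CPM under normoxia and 12.6, 14.5 and 13.8 CPM after hyperoxia in C57BL/6J, and at 48.8, 48.3 and 52.1 CPM and 76.2, 80.1 and 76.7 CPM in DBA/2J. It was lower after hyperoxia in every C57BL/6J library and higher in every DBA/2J library, with effects of -1.84 and 0.47 (interaction adjusted p = 7.89e-07, edgeR). C4a, a complement component with a close copy, and Rnase4, which shares a promoter region with a neighbouring ribonuclease gene, passed the test as falls in DBA/2J (-4.45 and -2.55), against -0.06 and -0.06 in C57BL/6J (interaction adjusted p = 1.49e-06 and 1.49e-06, edgeR). Their levels in C57BL/6J normoxia were at most 2.62 CPM and 8.27 CPM, and in DBA/2J normoxia at least 62.2 CPM and 86.5 CPM.

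**Figure D5:**
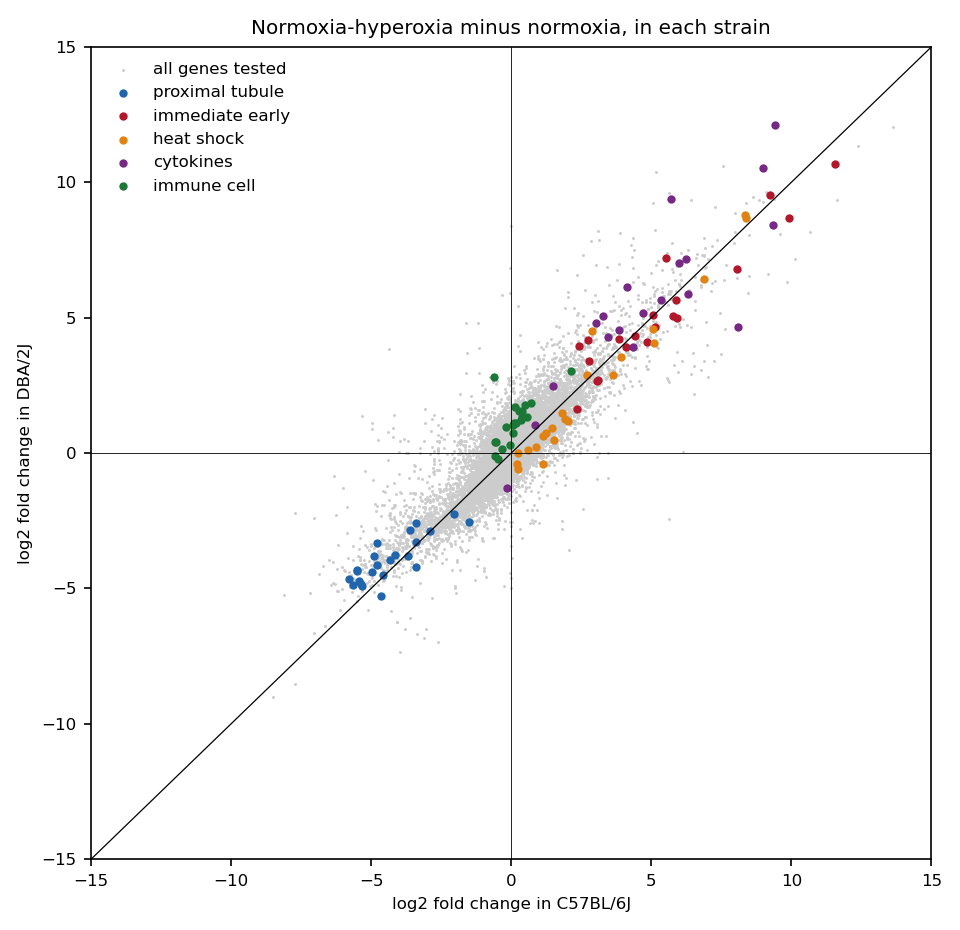
Log2 fold change of each gene in C57BL/6J (x axis) and in DBA/2J (y axis), with all genes tested in grey, 5 lists in colour and the line of equal effects. Proximal tubule markers lie at the lower left and immediate early genes and most heat shock genes and cytokines at the upper right, while immune cell markers lie above the line.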

How the data were processed

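RNA sequencing libraries were made from mouse kidney slices with an Illumina stranded mRNA ligation kit after extraction with a Qiagen kit, per the labels' protocols. The authors deposited 1 table of raw counts per gene, with 48 library columns and 55487 Ensembl gene IDs. Its reads were processed with bcl2fastq 2.20.0, FastQC 0.11.8, STAR 2.7.9a and featureCounts 1.5.1 on GRCm38, per the submitters' processing notes, which give no role or order. The annotation release, the strand setting and the treatment of reads shared between genes are not given in the sources used here, so values of overlapping, antisense and near-identical genes are uncertain. Symbols came from RefSeq and gene name tables for 55141 IDs.

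The 12 libraries of both arms were fitted with edgeR 4.0.16 (R 4.3.3) with TMM factors, the filterByExpr filter and the robust quasi-likelihood test on 4 groups of strain by arm, which left 17228 genes and 8 residual degrees of freedom. The effect is the mean of both strains' differences, the interaction their difference, and calls were made at an adjusted p-value under 0.05. SE is the fitted log2 fold change over the square root of F. CPM use library totals. The mitochondrial share was tested with an exact permutation of the arms within strains. Scripts were tested on simulated data.

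The lists of genes, their members and the comparison were chosen with earlier results of these data known. By rule the text names the 10 largest rises and falls with a mean log2 CPM of at least 3 and no overlap, from each list the 2 largest rises and falls with a mean log2 CPM of at least 1, 40 genes of general interest, and the 5 genes with the smallest interaction p-values, and it may leave some out. A few named genes are not reported here. Other list members were chosen after their values were seen. Alternatives were other scaling factors, no filter, DESeq2 1.42.0, all 48 libraries, an additive model, glmTreat, a replicate block, leaving out the mitochondrial genes and leaving out each library. Counting intervals and floors cover counting error only.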

Additional observations from a re-analysis of the deposited data

Results flagged for a closer look

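The strains' responses to hyperoxia differed by edgeR's interaction test (adjusted p-value under 0.05) for 3134 genes, and for the genes below among those named in the report. Each value is the log2 fold change in DBA/2J minus that in C57BL/6J, so a positive value is a larger rise or a smaller fall in DBA/2J.

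Among genes of inflammation and repair the log2 fold change was larger in DBA/2J for Il1b (1.77), Tnf (1.99), Casp4 (1.35), Psmb8 (0.64), Psmb9 (0.91), Cd74 (1.15), Ccn2 (0.97), Plaur (0.83) and the smooth muscle gene Tagln (0.92). Others of this kind rose less in DBA/2J, such as Nfkb2 (2.91 in C57BL/6J and 2.26 in DBA/2J) and Bcl3 (1.92 and 1.14). The injury genes Cdkn1a and Itgb6, given below, also had the smaller value there. Of immune cell genes, Ptprc (1.16) and Csf1r (1.00) had log2 fold changes below 0 in C57BL/6J and rose in DBA/2J. The cytokine gene Il34 (-1.15) had the more negative log2 fold change in DBA/2J, as did Timp3 (-1.40), Erbb3 (-0.93), Aco1 (-0.42), Slc30a1 (-0.44), Slc16a1 (-0.99), Sel1l (-0.79), Pdia3 (-0.54) and Egln2 (-0.57).

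In a further group of genes the log2 fold change was smaller in DBA/2J for Hmox1 (-1.37), Fos (-1.27), Cdkn1a (-1.36), Nfil3 (-1.90), Txnrd1 (-0.68), Atf4 (-0.55), Asns (-0.76) and Star (-2.12), and larger for Slc7a11 (1.96), Pdk4 (2.71), Pdk1 (0.83) and Pkm (0.69). The genes Hsf2 (-0.84), Itgb6 (-0.82), Ndrg1 (-1.21), Ldha (-0.70), Xbp1 (-0.56) and Gapdh (-0.61) had log2 fold changes above 0 in C57BL/6J and below 0 in DBA/2J.

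Falls were smaller in DBA/2J for Slc34a1 (1.16), Slc22a28 (1.59), Car9 (2.79), Tgm1 (1.78) and Nqo1 (0.60). The same held for the mitochondrial genes mt-Co2 (2.51), mt-Co3 (2.16), mt-Atp6 (2.21), mt-Atp8 (2.63) and mt-Nd4l (2.03). Counts of these mitochondrial genes are uncertain, as the report sets out. The genes mt-Nd1 (1.00) and mt-Nd4 (0.91) had log2 fold changes below 0 in C57BL/6J and above 0 in DBA/2J, and Havcr1 (2.18) rose in DBA/2J and did not pass in C57BL/6J.

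The 5 genes with the smallest interaction p-values were Gcnt1 (8.23), Hdc (-5.64), C4a (-4.39), Rnase4 (-2.49) and Mlycd (2.31), whose levels are given in the report.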

How the results depend on the processing

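With other scaling factors, no filter on low counts, DESeq2, all 48 libraries, an additive model or without the mitochondrial genes, 12102 to 13501 genes changed over both strains against 12663, and 12365 to 12702 without any 1 library. By more than 2-fold the counts were 3631 (glmTreat, which tests the size itself) to 6338, and 5100 to 5506 without 1 library. The ranges were 10574 to 10820 and 9797 to 10894 for C57BL/6J, 11713 to 12073 and 10918 to 11979 for DBA/2J, and 2469 to 3463 and 2240 to 3364 for the interaction. The share of calls that were higher was 50.3%, and 47.6% (upper quartile factors) to 55.2% (library totals) under the alternatives. The mitochondrial share differed by -5.30 to -3.71 percentage points without 1 library, and by -4.24 with the mitochondrial rRNA and tRNA genes.

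List medians kept within the spread of replicates in 792 of 797 recomputations. The 5 that did not included NRF2 (0.26) and iron and metallothionein (-0.19) with library totals and cornification (8.36) with DESeq2. The others were p53 (0.50) without DBA/2J normoxia-hyperoxia replicate 3 and principal cells (0.43) without DBA/2J normoxia-hyperoxia replicate 1. With library totals the medians of the unfolded protein response (-0.04), the cell cycle (0.21) and the proteasome (-0.03) moved by more than 1.5 times but stayed within that spread. Values that did not pass changed sign for Ldha (-0.031 with upper quartile factors, -0.0047 without the mitochondrial genes, -0.045 to 0.067 without 1 library) and mt-Nd4 (-0.0082 with upper quartile factors, -0.11 to 0.082 without 1 library). The mean over both strains of Gcnt1, whose strains moved in opposite directions, lay at -0.44 to 0.013 without 1 library. With all 48 libraries in the fit Col1a1, Hdc, Itgb6, Mki67 and Mxi1 no longer passed, nor did the strain differences of Car9 (adjusted p = 0.113) and Havcr1 (adjusted p = 0.0973), by edgeR. With library totals Egln1, Umod and Xbp1 passed as rises (adjusted p = 0.0132, 0.0285 and 0.0442, edgeR) and Mxi1 did not pass (adjusted p = 0.129, edgeR). With upper quartile factors Hsf2 passed as a fall (adjusted p = 0.0374, edgeR), Cs and Mki67 did not pass (adjusted p = 0.126 and 0.069, edgeR), and 5 oxygen sensing and 2 heat shock genes fell. With no filter mt-Cytb and mt-Nd1 also passed as falls (adjusted p = 0.0208 and 0.0462, edgeR) and Cs did not pass (adjusted p = 0.15, edgeR). The fold changes were about the same without the filter, so these calls turned on the estimated spread. In the additive model Cs, Itgb6, Mlycd and Ptprc did not pass (adjusted p = 0.0786, 0.113, 0.127 and 0.0992, edgeR). That model gives both strains the same effect, so the strain differences of Itgb6, Mlycd and Ptprc enter its estimated spread. The cause of the other changes was not tested.

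With the replicate number within a strain as a block, 12765 genes passed as the mean effect, C57BL/6J alone gave 10906 and DBA/2J alone 11917, the interaction passed for 3921, and 98.7% of the calls were shared. Under the block Umod, Ndrg1, mt-Cytb and mt-Nd1 passed (adjusted p = 0.0215, 0.0299, 0.0256 and 0.0232, edgeR), and the mitochondrial share did not (-4.38 points, exact sign-flip p = 0.188, smallest possible p 0.0312). Same-numbered libraries of the arms correlated in their deviations at 0.06, 0.18 and -0.04 in C57BL/6J and 0.30, 0.13 and 0.25 in DBA/2J. Every DBA/2J library correlated best with its own number and not every C57BL/6J library did, a hint from the data and not from the design, so the numbers were not used as pairs. The library with 5619309 counts limits the precision for genes at low counts in DBA/2J.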

Other observations

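Control slices were in neither arm of the comparison, and for many lists their levels lay apart from those of the normoxia slices. Cytokine genes summed to 1170 to 1540 CPM in the 24 h controls, 123 to 155 CPM in normoxia and 1190 to 1550 CPM after hyperoxia. In the same order NRF2 genes took 10500 to 14200, 2470 to 2640 and 4780 to 7550 CPM. Glycolysis genes took 17400 to 23000, 4560 to 5070 and 7310 to 9590 CPM. Several cell marker lists went the other way, as immune cell markers did (345 to 603 CPM in the 24 h controls, 683 to 1180 CPM in normoxia). Proximal tubule markers summed to 1990 to 2750 CPM in C57BL/6J and 5140 to 9440 CPM in DBA/2J controls of 24 h, and to 10900 to 20600 CPM and 26500 to 32900 CPM in controls of 6 h, below every normoxia library of the same strain. Immediate early genes summed to 4980 to 5740 CPM over both strains in the 24 h controls and 7200 to 10800 CPM in the 6 h controls, against 464 to 601 CPM in normoxia. Cornification genes summed to 4590 to 7610 CPM in the 24 h controls, above the 663 to 1230 CPM of the normoxia-hyperoxia libraries and the 22.2 to 28.9 CPM of the normoxia libraries. The labels do not say how the oxygen supply of the controls differed from that of the normoxia slices. A rise or fall given in the report is a difference from the normoxia slices and not from the controls.

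Among markers of stroma and smooth muscle 7 of 12 rose and 1 fell (median 0.64). Among those that rose were Tagln at 1.29 (SE 0.14), Notch3 at 0.86 (SE 0.10) and Acta2, smooth muscle actin, at 0.84 (SE 0.17, edgeR adjusted p = 0.00104). Pdgfra and Lum, markers of fibroblasts, did not pass (0.18, SE 0.28, and -0.07, SE 0.45). Of 4 ferroptosis genes 2 rose, the cystine importer gene Slc7a11 and Acsl4, which loads membranes with oxidisable lipids (1.14, SE 0.07), and 2 fell, Gpx4 and Aifm2 (-0.26, SE 0.08).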
